A study of Mus musculus with 15 samples.

Results

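Liver mRNA was compared between 5 aged female mice given protectin DX (PDX) and 5 aged female mice given the vehicle (Old), in the means of the groups and in the spread between the mice of a group. These 10 mice were taken by their labels, P1 to P5 and O1 to O5, from a series of 15 liver libraries, whose other 5 came from younger vehicle-treated mice (Adult). All were C57BL/6 females. Old and PDX mice were 22 months of age and Adult mice 6 months of age when the experiment began, and every mouse was gavaged daily with 120 µL of corn oil, which carried PDX at 30 ng per g of body weight in the PDX group alone. The sample labels give 9 weeks of gavage and the series description gives 8. Each library came from 1 mouse. The mice were processed in batches and euthanized over a working day, and neither the batch nor the hour of a mouse is given. In bulk liver RNA, fewer cells of a type and less RNA per cell cannot be told apart.

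PDX is made from docosahexaenoic acid, an omega-3 fatty acid, and belongs to the lipid mediators that are known for ending inflammation rather than starting it. Lipoxygenases make such mediators, and G protein-coupled receptors on leukocytes and other cells sense them. The liver sets blood glucose, cholesterol, bile acids and the acute-phase proteins of plasma, and it holds resident macrophages (Kupffer cells) and other immune cells beside the hepatocytes. When the mice of a group differ among themselves, their mean is less certain, so the spread between mice was described for each gene beside the mean.

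The 10 libraries held 25480180 to 30139181 counted read pairs. Hepatocyte markers were abundant in every mouse, and albumin (Alb) alone took 8.38% to 15.9% of the pairs except in O5, with 3.62%. The 12 hepatocyte markers summed to 70074 to 210140.0 CPM in Old and 118600.0 to 170910.0 CPM in PDX. CPM are counts scaled by the library size times the TMM factor of the library, so their totals differ between libraries. That factor was 1.33 in O2 and 0.88 to 1.08 in the other Old and PDX mice. O2 and O5 stood apart from the other 8 mice. In 13159 of 15808 tested genes (83.2%), O2, O5 or both lay outside the range of the other 3 Old and the 5 PDX mice. The share is not given for other pairs of mice, and any pair would lie outside the rest in some genes. The 2 mice did not deviate alike, since both lay above the other 8 in 1714 genes, both below in 2303 genes and on opposite sides in 2081 genes. They were also the extremes of the mean weekly change of body weight among the 10 mice, with 3.07% in O2 and -3.55% in O5, and O5 had the highest frailty index (0.56, against 0.06 to 0.33 in the other 9 mice). The part of these traits in the values below was not tested, and the results over all genes and those of most gene lists are also given without O2 or O5. These 2 mice were left out because they stood apart in these same data, and no PDX mouse was left out beside them. Where such a mouse is the highest or lowest of a list, leaving it out moves the difference of the means by construction. Counts of genes without O2 or O5 therefore describe the remaining mice and are no independent test.

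No single gene passed the test of a difference between the group means after adjustment for the number of genes. In edgeR's quasi-likelihood test the smallest Benjamini-Hochberg adjusted p was 0.793, so the thresholds of 0.05 and 0.25 left 0 genes. DESeq2 also called 0 genes at either threshold, with 194 genes higher and 819 lower at an unadjusted p below 0.05. At an unadjusted p below 0.05 in edgeR there were 165 genes with a higher mean in PDX (1.04% of those tested) and 669 with a lower mean (4.23%), together 834 (5.28%). The PDX mean was the higher of the 2 for 6342 genes (40.1%), and the median log2 fold change, PDX minus Old, was -0.069. With O2 and O5 left out, 977 genes were higher (6.18%) and 438 lower (2.77%) at the same unadjusted threshold, still with 0 at an adjusted p below 0.25. The majority of nominal differences thus lay below Old with all mice and above Old without those 2. Leaving out 1 mouse at a time moved these counts to between 73 (without P2) and 861 (without O2) higher and between 395 (without O5) and 1509 (without O1) lower. Beside the 861 higher (5.45%), 906 were lower without O2 (5.73%), and beside the 395 lower (2.5%), 201 were higher without O5 (1.27%). Of the 834 genes, 740 kept the sign of their difference without O2 and O5, and 183 also kept an unadjusted p below 0.05. On the variance-stabilized values of the authors, limma gave 256 genes higher and 317 lower at that threshold. Each fold change below is log2, PDX minus Old, ± its standard error, and every gene named below missed both adjusted thresholds for its mean. These standard errors and the edgeR p rest on an estimate of spread that Old, PDX and Adult mice share. The median SD of log2 CPM was 0.53 in Old, 0.23 in PDX and 0.20 in Adult. The shared estimate can therefore make the standard errors and p too small. With Adult mice left out of the fit, 79 genes were higher and 325 lower at an unadjusted p below 0.05. Means of CPM are given ± SD over the 5 mice of a group, and levels in CPM are not corrected for gene length and so are not compared between genes.

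The genes with the smallest p for a higher mean in PDX included enzymes, a transporter and matrix proteins. Cyp17a1 (ENSMUSG00000003555, GRCm38 chromosome 19, 46667165 to 46673172, minus strand) encodes the steroid 17-alpha-hydroxylase. Its level was 363, 177, 263, 309 and 81.5 CPM in O1 to O5 and 783, 827, 324, 545 and 263 CPM in P1 to P5. The means were 548 ± 257 CPM in PDX and 239 ± 111 CPM in Old (± SD), with a log2 fold change of 1.20 ± 0.37 (adjusted p = 0.793). P1, P2 and P4 exceeded every Old mouse, while P3 and P5 lay within the Old range. Slc13a5, the sodium-coupled citrate transporter, was measured at 2.93, 4.24, 2.22, 2.97 and 4.36 CPM in O1 to O5 and 8.13, 10.0, 6.18, 5.32 and 3.68 CPM in P1 to P5. Only P5 lay within the Old range, and the log2 fold change was 0.99 ± 0.27. Cyp39a1, an oxysterol 7-alpha-hydroxylase of bile acid synthesis, had 29.0, 28.4, 45.5, 55.8 and 23.2 CPM in O1 to O5 and 79.1, 91.1, 43.0, 48.3 and 55.0 CPM in P1 to P5, so P1 and P2 were above all Old mice and the other PDX mice were not. Gch1, which makes the first intermediate of tetrahydrobiopterin, had a log2 fold change of 0.52 ± 0.17.

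For several genes of this group P1 and P2 were the highest mice. B3galt1, a galactosyltransferase, reached 92.7 CPM in P1 and 186 CPM in P2, while P3, P4 and P5 had 11.0, 21.9 and 12.5 CPM and the Old mice 4.15 to 27.3 CPM. Col4a4, a chain of basement membrane collagen, had 2.08, 3.57, 0.716, 2.45 and 1.01 CPM in O1 to O5 and 9.67, 10.2, 5.11, 3.29 and 1.69 CPM in P1 to P5, and P1, P2 and P3 exceeded every Old mouse. P1 and P2 also had the highest mean level of the acute-phase genes among the PDX mice, 0.42 and 1.29 log2 units from the mean of the 10 mice, against -0.42 to -0.14 in P3 to P5. Pcolce2, an enhancer of procollagen processing, and Klhl3, an adaptor of a cullin ubiquitin ligase, had log2 fold changes of 0.97 ± 0.31 and 0.51 ± 0.16. Il18bp, which binds interleukin-18, had 23.6, 39.8, 24.7, 26.1 and 14.7 CPM in O1 to O5 and 37.0, 53.3, 42.7, 42.5 and 27.0 CPM in P1 to P5, so P2, P3 and P4 exceeded every Old mouse and P1 and P5 did not. Eps8l1, an actin regulator, had a log2 fold change of 0.92 ± 0.31. The 12 genes named for a higher mean kept that direction when any 1 of the 10 mice, or O2 and O5 together, was left out.

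Among the genes with a lower mean in PDX were G6pc, Irs2 and Sgk1, while the lists that hold G6pc and Irs2 had no common direction (11 of 22 genes of glucose metabolism and 9 of 18 of the insulin and growth hormone axis had a lower mean). G6pc (ENSMUSG00000078650, GRCm38 chromosome 11, 101367561 to 101377903, plus strand), the catalytic subunit of the phosphatase that releases glucose, had 204, 294, 311, 674 and 520.4 CPM in O1 to O5 and 227, 233, 113, 129 and 194 CPM in P1 to P5. The means were 179 ± 55.4 CPM in PDX and 401 ± 192 CPM in Old (± SD), and the log2 fold change was -1.16 ± 0.32 (adjusted p = 0.793). The lowest Old mouse, O1, lay below P1 and P2, and all other Old mice lay above every PDX mouse. The log2 fold change of G6pc without O2 and O5 was -1.14. Irs2 (ENSMUSG00000038894, GRCm38 chromosome 8, 10984681 to 11008458, minus strand), the insulin receptor substrate of the liver, had 26.9, 38.2, 42.4, 97.6 and 162 CPM in O1 to O5 and 30.6, 29.0, 26.7, 29.3 and 31.3 CPM in P1 to P5. The PDX mice were within 26.7 to 31.3 CPM, whereas O4 and O5 were high, and the log2 fold change of -1.32 ± 0.40 became -0.91 without O2 and O5. Sgk1, a kinase induced by serum and glucocorticoids, had 126, 40.2, 21.9, 55.2 and 482 CPM in O1 to O5 and 42.9, 30.8, 27.9, 31.2 and 17.0 CPM in P1 to P5, with O5 far above the rest.

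For several other genes with a lower mean in PDX, the difference lay mostly in 1 or 2 Old mice. Cyp2d9, a cytochrome P450 known for its higher level in male mouse liver, had 6.03, 1.76, 9.73, 5.35 and 477 CPM in O1 to O5 and 1.81, 1.65, 5.99, 2.64 and 4.40 CPM in P1 to P5, and its log2 fold change of -4.91 ± 1.34 was -0.77 without O5. Cdc42ep5, a Cdc42 effector, had 70.4 CPM in O5 against 1.12 to 2.68 CPM in the other 9 mice. Read pairs of Cyp2d9 may align to its close relatives too, and only uniquely aligned pairs were counted, so its level is uncertain. Cdt1, a replication licensing factor, had 3.74, 14.1, 4.49, 3.60 and 7.21 CPM in O1 to O5 and 2.56, 2.49, 3.79, 3.39 and 2.03 CPM in P1 to P5, with O2 and O5 highest and O1 and O4 within the PDX range. Arl4d, a small GTPase, had 25.0, 50.8, 52.4, 39.1 and 137 CPM in O1 to O5 and 37.3, 13.3, 20.8, 27.9 and 10.8 CPM in P1 to P5, with O5 highest. Gse1 had a log2 fold change of -1.24 ± 0.37. A smaller and more even difference was seen for Dip2c, with 9.81, 14.7, 13.1, 11.1 and 12.6 CPM in O1 to O5 and 7.97, 9.75, 8.52, 10.0 and 9.84 CPM in P1 to P5 (log2 fold change -0.42 ± 0.12), where O1 alone among the Old mice lay within the PDX range. Mars2, the mitochondrial methionyl-tRNA synthetase, had a log2 fold change of -0.81 ± 0.24, and AC122453.1 of -0.47 ± 0.14. The pseudogene Kansl2-ps and the predicted gene Gm9616, whose reads may be shared with related sequences, had -0.61 ± 0.18 and -0.38 ± 0.11. The 12 genes with the smallest p for a lower mean, those described from G6pc to Gm9616 other than Irs2, kept that direction without any 1 mouse and without O2 and O5.

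**Figure D1:**
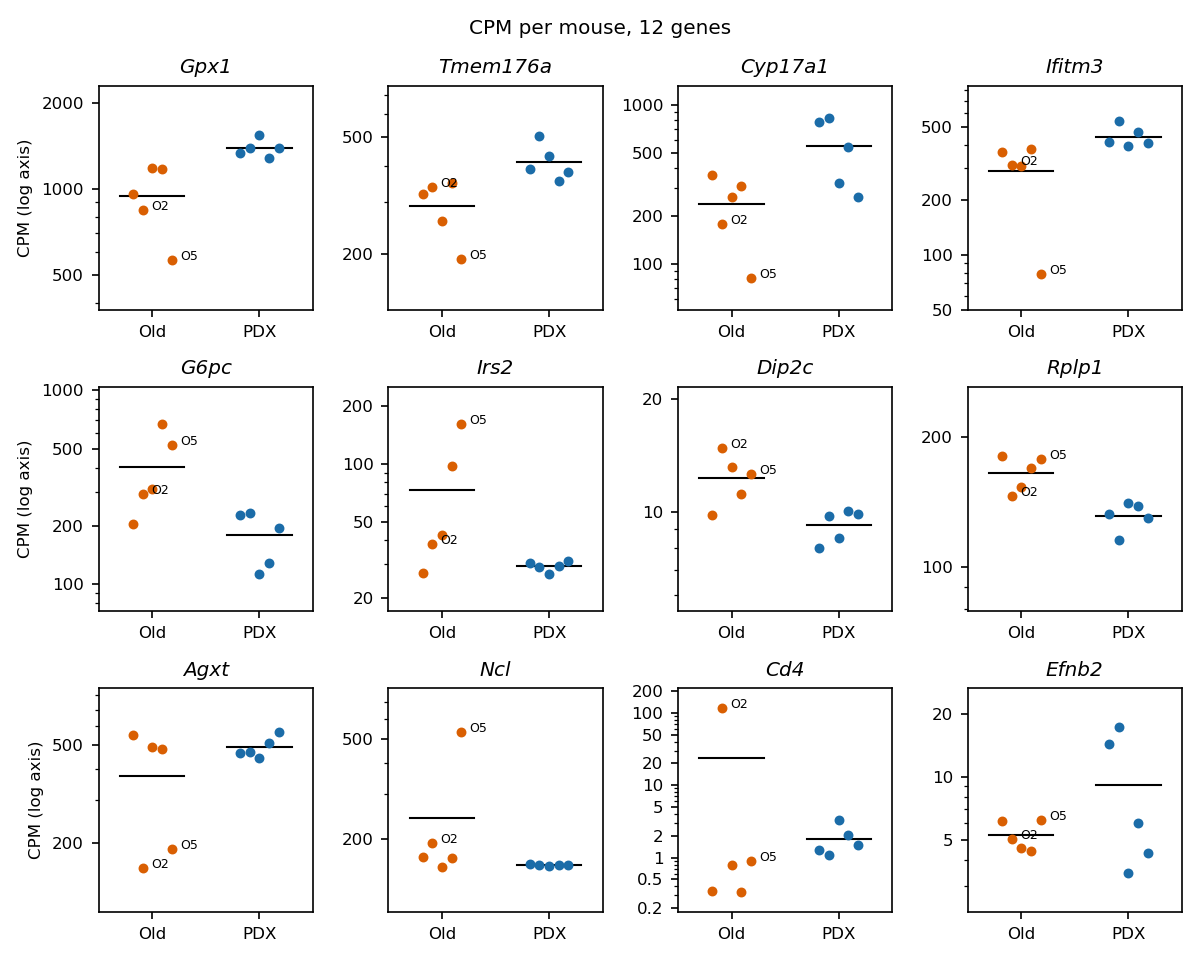
CPM of 12 genes in each Old (orange) and PDX (blue) mouse on a log axis, with a horizontal line at the group mean and O2 and O5 named. Gpx1 and Ifitm3 show no overlap of the groups, with O5 the lowest Old mouse, whereas Cd4 is high in O2 alone and Efnb2 spreads more in PDX.

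The Old and PDX mice did not overlap at all in 54 genes (0.342% of those tested), 23 higher in PDX (0.145%) and 31 lower (0.196%). At a mean log2 CPM of 5 or more, 7 of these were higher and 2 lower. Gpx1 (ENSMUSG00000063856, GRCm38 chromosome 9, 108338903 to 108340343, plus strand), the glutathione peroxidase that reduces hydrogen peroxide, had 959.8, 845, 1179.7, 1177 and 564 CPM in O1 to O5 and 1335, 1389.9, 1541, 1280.2 and 1386 CPM in P1 to P5. The means were 1386 ± 97.4 CPM in PDX and 945 ± 257 CPM in Old (± SD), and the log2 fold change was 0.55 ± 0.19 (adjusted p = 0.793). Every PDX mouse exceeded every Old mouse, O5 was the lowest, and without O2 and O5 the log2 fold change was 0.34. Tmem176a, a membrane protein of immune and other cells, had 320.3, 339, 259, 349 and 192 CPM in O1 to O5 and 391, 505, 434, 355 and 379.5 CPM in P1 to P5, and O4 and P4 were close to each other. Nadk, the kinase that makes NADP from NAD, had a log2 fold change of 0.43 ± 0.17 and was lowest in O5, with 113 CPM. Lsr, a lipoprotein receptor, and Slc22a27, an organic anion transporter, also had their lowest level in O5, 72.9 and 3.21 CPM, against 183 to 253 and 42.6 to 59.5 CPM in O1 to O4. Of the 2 lower genes, Rplp1, a stalk protein of the ribosome, had 180.2, 146, 153, 169.7 and 178 CPM in O1 to O5 and 133, 115, 140.4, 138 and 130.0 CPM in P1 to P5, with a log2 fold change of -0.33 ± 0.10 (adjusted p = 0.793). Hnrnpm, a splicing factor, had almost no gap between the groups (146 to 161 CPM in Old and 129 to 146 CPM in PDX), with a log2 fold change of -0.13 ± 0.09. Rplp1 has copies elsewhere in the genome, so its count may miss pairs that aligned to more than 1 place.

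Interferon-stimulated genes had higher means in PDX nearly throughout, and the Old mice spanned them at both ends. Of 37 members, 36 had a higher mean in PDX, beside 40.1% of all genes. At an unadjusted p below 0.05, 3 were higher (1.04% of all genes) and 0 lower (4.23%). The median log2 fold change was 0.55 against -0.069 for all tested genes. The mean level of the list, in log2 units from the mean of the 10 mice, ranged from -2.72 (in O5) to 1.06 (in O2) in Old and from 0.10 to 0.90 in PDX. No listed member was without overlap of the groups, but 2 other genes that interferon induces, Ifitm3 and Ifi27, were. Ifitm3 (ENSMUSG00000025492, GRCm38 chromosome 7, 141009586 to 141010770, minus strand), which restricts the entry of viruses, had 364, 311, 308, 379.6 and 78.4 CPM in O1 to O5 and 414, 539, 394, 468 and 409 CPM in P1 to P5. O5 was by far the lowest, and every PDX mouse was above every Old mouse (log2 fold change 0.63 ± 0.30, and 0.35 without O2 and O5). Ifi27 had 135, 90.4, 104, 128 and 20.9 CPM in O1 to O5 and 156, 202, 149, 181 and 171 CPM in P1 to P5, again with O5 lowest and no overlap. Usp18, a protease that removes the ubiquitin-like ISG15, had 6.41, 15.5, 12.5, 12.1 and 3.14 CPM in O1 to O5 and 12.0, 29.1, 16.2, 20.4 and 18.4 CPM in P1 to P5 (log2 fold change 0.95 ± 0.35), and P1 lay within the Old range. Mx2, an antiviral GTPase, had a log2 fold change of 0.81 ± 0.30, and Irf9, a partner of the interferon-activated STAT proteins, one of 0.55 ± 0.25. Iigp1, an interferon-inducible GTPase, had 185, 628, 281, 244 and 16.1 CPM in O1 to O5 and 254, 349, 343, 347 and 360.1 CPM in P1 to P5, with O2 highest of all mice and O5 lowest. Without O2 and O5, 32 of the 37 members had a higher mean in PDX at an unadjusted p below 0.05, where 6.18% of all genes did, and the median log2 fold change was 0.80. Without O5 alone the count was 6 (1.27% of all genes), and without O2 alone 29 (5.45% of all genes).

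The promoters of these genes are shown because interferon acts through a short DNA element and 36 of the 37 genes had a higher mean in PDX. Pairs of GAAA with any 2 bases (NN) between them were searched on both strands of RefSeq promoters (GRCm38.p6, 250 bases before to 50 after the start of transcription). They stood in 16 of the 25 listed interferon genes found in that table (64.0%), and in 3.99% of all 27025 genes and 3.44% of all 32851 promoters of it. The list was made of genes known to be induced by interferon, so a high share follows from that choice. It does not bear on the difference between PDX and Old. Windows of 30 bases are given 5′ to 3′ on the strand of the gene, with the matched letters in capitals. The search did not count a match that overlapped one already found, and such a match is not marked in capitals. Ifitm3, not one of those 37, is added for its values above, and had 2 matches, 2 and 19 bases after the start (chr7:141010723-141010752 and chr7:141010706-141010735, minus strand). Bst2, which tethers budding virus, had 1 counted match, 130 bases before the start (chr8:71537583-71537612, minus strand). An uncounted match overlaps its end. Isg15, the ubiquitin-like modifier, had 2 counted matches, 78 and 66 bases before the start (chr4:156200877-156200906 and chr4:156200865-156200894, minus strand). An uncounted match lies between them and overlaps both.
Ifitm3 at the first match: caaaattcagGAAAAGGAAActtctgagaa
Ifitm3 at the second match: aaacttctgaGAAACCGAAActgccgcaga
Bst2: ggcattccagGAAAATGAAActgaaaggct
Isg15 at the first match: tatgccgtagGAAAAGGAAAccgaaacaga
Isg15 at the second match: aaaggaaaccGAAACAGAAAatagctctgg
Beside these letters, Bst2 was measured at 139, 174, 109.9, 132 and 15.5 CPM in O1 to O5 and 140.0, 209, 177, 201 and 162 CPM in P1 to P5. Isg15 was measured at 10.4, 21.4, 10.9, 13.7 and 0.613 CPM in O1 to O5 and 12.5, 30.7, 14.5, 28.7 and 18.7 CPM in P1 to P5. In both genes O5 was the lowest mouse and P2 the highest. A match describes the letters alone and is not a measured binding site.

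Antigen presentation split by class in the fold changes with all mice, but not in the mean log2 level of the lists. That level, in log2 units from the mean of the 10 mice, averaged -0.21 in Old and 0.21 in PDX for class I. For class II it averaged -0.17 in Old and 0.17 in PDX. Of 13 class I genes 11 had a higher mean in PDX, 0 of them with an unadjusted p below 0.05. H2-K1, a class I heavy chain, had 1299.8, 1937, 1669, 1422 and 1279.8 CPM in O1 to O5 and 1364, 1863, 1764, 1767 and 2015 CPM in P1 to P5, with overlapping groups (log2 fold change 0.21 ± 0.16). Psmb10, a subunit of the immunoproteasome that cuts peptides for class I, had 44.6, 78.8, 39.6, 45.0 and 11.3 CPM in O1 to O5 and 60.2, 73.2, 63.1, 64.2 and 59.8 CPM in P1 to P5, and Psme2, of its activator, had a log2 fold change of 0.36 ± 0.23. With O2 and O5 left out, 10 of the 13 were higher at that threshold, as were 6.18% of all genes. The 10 class II genes, which mark B cells and macrophages, all had a lower mean in PDX with all mice. Their median log2 fold change was -1.11, and none had an unadjusted p below 0.05. Cd74, the class II invariant chain, had 121, 3138, 208, 142 and 23.1 CPM in O1 to O5 and 143, 202, 433, 234 and 187 CPM in P1 to P5, so that O2 alone lay above the PDX mice. H2-Aa, a class II chain, had 1082 CPM in O2 and 6.17 to 159.6 CPM in the other 9 mice. Without O2 the log2 fold change was 0.95 for Cd74 and 0.92 for H2-Aa, the opposite sign, and 4 of the 10 members were then higher in PDX at an unadjusted p below 0.05, where 5.45% of all genes were.

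The lists of Kupffer cell, neutrophil, B cell and T cell markers had their highest mean level in O2, and their comparison with PDX turned on that mouse. With all mice, their mean log2 level relative to the 10 mice was higher in PDX. It was 0.24, 0.15, 0.15 and 0.23 in PDX, in that order, and -0.24, -0.15, -0.15 and -0.23 in Old. T and cytotoxic lymphocyte markers (19 of 21 tested) ranged, as mean log2 level relative to the 10 mice, from -1.89 (in O5) to 2.69 (in O2) in Old and from -0.28 to 1.17 in PDX. Cd4, the T helper coreceptor, had 0.340, 116, 0.792, 0.334 and 0.902 CPM in O1 to O5 and 1.26, 1.08, 3.28, 2.04 and 1.48 CPM in P1 to P5. The log2 fold change of -3.69 ± 1.37 with all mice was 1.62 without O2. Of the 19, 16 had a lower mean in PDX with all mice, whereas without O2 all 19 had a higher one, 12 of them at an unadjusted p below 0.05 (5.45% of all genes). Kupffer cell markers summed to 571 to 4824 CPM in Old and 1106 to 2302 CPM in PDX, and with all mice 0 of 12 had an unadjusted p below 0.05. Without O2, 10 of the 12 had a higher mean in PDX at that threshold, where 5.45% of all genes did. Because O2 had the highest mean level of these lists, its removal raises PDX minus Old by construction, and the share of all genes does not correct for that. Cd5l, a secreted protein of Kupffer cells, had 239.9, 641, 330.2, 184 and 60.6 CPM in O1 to O5 and 329, 508, 577, 599 and 271 CPM in P1 to P5, and Marco, a scavenger receptor, 12.9 to 91.3 CPM in Old and 16.6 to 197 CPM in PDX. Of 10 markers of lipid-associated macrophages, which take up lipid in fatty or injured liver, 8 had a lower mean in PDX with all mice, but 5 without O2 and 2 without O2 and O5, and the median log2 fold change went from -0.40 to 0.46 without both. Trem2, a lipid receptor of these cells, had 66.9 CPM in O2 against 2.03 to 9.43 CPM in the others, and Lpl, a lipase, 198 against 21.0 to 76.1 CPM. Cd63, of lysosome membranes, was the member with an unadjusted p below 0.05, and was highest in O5 (48.0 CPM, against 5.54 to 20.7 CPM in the others). Eomes, a transcription factor of cytotoxic lymphocytes, had 0.212, 7.08, 0.490, 0.223 and 0.180 CPM in O1 to O5 and 0.631, 0.241, 0.946, 0.786 and 0.585 CPM in P1 to P5.

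Neutrophil and granule genes (13 of 15 tested) summed to 29.3 to 318 CPM in Old and 62.9 to 220.2 CPM in PDX. Prtn3, a granule protease, had 20.3, 31.7, 5.54, 63.1 and 3.54 CPM in O1 to O5 and 75.3, 127, 14.7, 44.8 and 37.6 CPM in P1 to P5 (log2 fold change 1.27 ± 0.68), and Ltf, lactoferrin, had 42.9 CPM in O2 and 0.520 to 8.98 CPM in the other 9. With all mice 0 of the 13 passed an unadjusted p of 0.05 and the median log2 fold change was -0.52. Without O2 and O5 it was 1.54, and 10 of the 13 were higher in PDX at that threshold, beside 6.18% of all genes. B cell markers ranged among the Old mice from -1.63 in O5 to 1.52 in O2, and O3 was also high (1.15). Of the 13 tested, 3 had a higher mean in PDX with all mice, 9 without O2 and 6 without O2 and O5. Ms4a1, the B cell surface protein CD20, had 1.62 to 25.4 CPM in Old and 2.54 to 11.1 CPM in PDX. Cr2, the complement receptor of B cells, was the list's member without overlap, at 0.000 to 0.111 CPM in Old and 0.120 to 0.473 CPM in PDX.

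Plasma cell genes had no common direction, with 6 of 12 higher and 6 lower in PDX. Their Ighg3, an immunoglobulin constant region, was high in P3 alone (26.8 CPM against 0.325 to 4.18 CPM in the other 9 mice). Sdc1, a surface proteoglycan of plasma cells and hepatocytes, had a log2 fold change of -0.03 ± 0.24. Mzb1, a chaperone of plasma cells, had a log2 fold change of -1.15 ± 0.60. Erythroid genes had a lower mean in PDX in 9 of 9 tested with all mice, but a higher one in 8 of 9 without O2 and in 6 of 9 without O2 and O5. Hbb-bs, a globin, was measured at 132, 678, 336, 79.6 and 67.1 CPM in O1 to O5 and 85.8, 153, 93.1, 331 and 224 CPM in P1 to P5, with O2 highest. Slc4a1, the red cell anion exchanger, turned from -2.16 to 2.61 (log2 fold change) without O2, and Klf1, an erythroid transcription factor, had -0.75 ± 0.28.

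Chemokines and lipid mediator genes, which bear on the class of agent given, also turned on O2. Of 20 tested chemokine and cytokine genes 1 passed an unadjusted p of 0.05, Ccl24, an eosinophil attractant, with 1.74, 31.0, 3.20, 2.08 and 2.02 CPM in O1 to O5 and 2.76, 2.09, 0.820, 2.14 and 2.10 CPM in P1 to P5. Ccl2, a monocyte attractant, and Cxcl13, a B cell attractant, were also highest in O2 (26.6 and 877 CPM, against 1.66 to 4.29 and 4.37 to 95.6 CPM in the other 9 mice). Once O2 and O5 were left out, 11 of the 20 were higher in PDX at that threshold (6.18% of all genes). Of 22 tested enzymes and receptors of lipid mediators, Pparg, a nuclear receptor for fatty acid derivatives, alone passed, with 8.07, 21.4, 9.99, 9.99 and 22.6 CPM in O1 to O5 and 7.06, 7.51, 10.1, 8.15 and 10.9 CPM in P1 to P5 and a log2 fold change of -0.72 ± 0.27. O2 and O5 were the highest, and the other 8 mice overlapped. Alox5, the 5-lipoxygenase of leukotriene and resolvin synthesis, had 0.0425, 11.0, 0.415, 0.483 and 0.866 CPM in O1 to O5 and 0.789, 0.602, 0.820, 0.715 and 0.516 CPM in P1 to P5. Ephx2, the soluble epoxide hydrolase, had 341, 133, 386, 313 and 499 CPM in O1 to O5 and 283, 211, 306, 286 and 379 CPM in P1 to P5 (log2 fold change -0.19 ± 0.26). With all mice 15 of the 22 had a lower mean in PDX, and 8 without O2 and O5. The receptors Fpr2 and Cmklr1 are known to sense resolving mediators and were chosen after their values were seen. Fpr2 had 1.19, 20.1, 1.02, 1.67 and 1.52 CPM in O1 to O5 and 1.74, 3.97, 8.67, 5.64 and 2.13 CPM in P1 to P5. Cmklr1 had 6.12, 43.8, 7.01, 6.20 and 5.84 CPM in O1 to O5 and 8.76, 11.7, 12.1, 12.5 and 6.57 CPM in P1 to P5. O2 was the highest mouse for both. The other 4 Old mice lay below every PDX mouse for Fpr2 and overlapped with P5 alone for Cmklr1.

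The acute-phase proteins of plasma were highest in P2 and O5. With all mice 13 of 23 had a higher mean in PDX and 2 passed an unadjusted p of 0.05, Steap4, a metalloreductase, with 146, 339.8, 192, 269.9 and 131 CPM in O1 to O5 and 406, 721, 279, 320.3 and 276 CPM in P1 to P5 (log2 fold change 0.89 ± 0.30) and Saa4, a serum amyloid A protein, with 185, 158, 212, 303 and 27.9 CPM in O1 to O5 and 516, 923, 188, 252 and 271 CPM in P1 to P5 (log2 fold change 1.28 ± 0.50). P1 and P2 were the highest mice for Saa4, and O5 the lowest. Hpx, the heme carrier hemopexin, had 9089.9, 8603, 5149.8, 10126 and 28290.0 CPM in O1 to O5 and 13138, 26874, 9223, 10318 and 9044 CPM in P1 to P5, so that O5 and P2 stood above the other 8. Saa1, named after its values were seen, reached 8325 CPM in P2 against 66.9 to 1475 CPM in the others. Without O5 alone 8 of the 23 were higher in PDX at that threshold, where 1.27% of all genes were, and without O2 and O5 again 8, where 6.18% were.

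Sterol and fatty acid synthesis genes were lowest in O5 and had higher means in PDX. The mean level of cholesterol synthesis, in log2 units from the mean of the 10 mice, was -2.05 in O5, -0.79 in O2 and -0.29 to 0.79 in the other 8 mice, and that of de novo lipogenesis -2.79 in O5 and -0.30 to 0.84 in the other 9. All 25 genes of cholesterol synthesis had a higher mean in PDX, 0 with an unadjusted p below 0.05, and their median log2 fold change was 0.58 with all mice and 0.12 without O2 and O5. Sqle, the squalene epoxidase, had 203, 139.7, 352, 227 and 61.6 CPM in O1 to O5 and 388, 373, 284, 362 and 185 CPM in P1 to P5. Msmo1, a later enzyme of the pathway, had a log2 fold change of 0.72 ± 0.43, with O5 lowest. De novo lipogenesis had 18 of 20 members higher, 0 of them at an unadjusted p below 0.05. Scd1, the stearoyl-CoA desaturase, had 639, 3038, 5623, 1119 and 87.4 CPM in O1 to O5 and 650.1, 3606, 1954, 1735 and 4093 CPM in P1 to P5. Acaca, the acetyl-CoA carboxylase, had a log2 fold change of 0.50 ± 0.25. Pnpla3, a lipase of fat droplets, had 0.0721 CPM in O5 and 12.3 to 90.4 CPM in the others. The median of the list was 0.37 with all mice and 0.0035 without O2 and O5.

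Bile acid synthesis had 15 of 16 members with a higher mean (40.1% of all genes) and 1 past the unadjusted threshold (Cyp39a1, above), where 1.04% of all genes were higher. Slc27a5, the bile acid ligase, and Cyp27a1, the sterol 27-hydroxylase, had log2 fold changes of 0.25 ± 0.20 and 0.34 ± 0.20, and without O2 and O5 the median of the list was -0.08. The sterol exporters Abcg5 and Abcg8, which work as a pair, were the 2 of 16 genes of bile transport past that threshold (log2 fold changes 0.66 ± 0.24 and 0.58 ± 0.25). Abcg5 had 57.9, 53.0, 62.9, 84.1 and 32.6 CPM in O1 to O5 and 128, 95.3, 102, 75.7 and 56.8 CPM in P1 to P5. Abcg8 had 60.4, 50.4, 83.0, 95.7 and 50.3 CPM in O1 to O5 and 145, 102, 115, 84.1 and 61.4 CPM in P1 to P5. P1 to P3 exceeded every Old mouse for both. Abcb11, the bile salt export pump, had 22.1 CPM in O5 and 361 to 846 CPM in the other 9 mice.

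Fatty acid oxidation, respiration and drug metabolism had median log2 fold changes of -0.012, 0.12 and -0.10 with all mice, and of -0.27, -0.062 and -0.32 without O2 and O5. In the latter setting 25 of 29 genes of fatty acid oxidation and 20 of 30 cytochrome P450 genes had a lower mean in PDX, 6 of each list at an unadjusted p below 0.05, where 2.77% of all genes were lower. With all mice, of 29 genes of fatty acid oxidation, Acot1, an acyl-CoA thioesterase, alone passed the unadjusted threshold, with 20.9, 7.37, 28.6, 13.3 and 16.7 CPM in O1 to O5 and 4.66, 2.13, 6.91, 7.22 and 18.7 CPM in P1 to P5 (log2 fold change -1.13 ± 0.47). Cpt1a, the gate of mitochondrial fatty acid import, was 865 CPM in O5 and 135 to 361 CPM in the others. Respiratory chain subunits had 48 of 50 members with a higher mean by small amounts, 0 past the unadjusted threshold, and 10 of 50 without O2 and O5. Uqcrb and Ndufa5 of complexes III and I had log2 fold changes of 0.28 ± 0.16 and 0.29 ± 0.17, and Atp5b, of the ATP synthase, of -0.011 ± 0.18, with 760.4 CPM in O2 and 1214 to 1539 CPM in the others. Of 30 cytochrome P450 genes 2 passed that threshold, Cyp2d9 and Cyp2c54, the latter with 40.7, 50.3, 355, 140.2 and 87.5 CPM in O1 to O5 and 4.50, 5.58, 17.7, 28.4 and 129 CPM in P1 to P5. P5 alone of the PDX mice lay inside the Old range. Cyp2e1, which handles ethanol, had a log2 fold change of -0.093 ± 0.30.

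Among 22 genes of glucose metabolism 3 passed the unadjusted threshold (5.28% of all genes), G6pc, Ppp1r3g and the glycolytic enzyme Eno1 (0.25 ± 0.11), the last higher in PDX. Pck1, the gluconeogenic phosphoenolpyruvate carboxykinase, had 1307, 2209, 1661, 4134 and 4612 CPM in O1 to O5 and 4138, 3578, 1308, 1094 and 3538 CPM in P1 to P5 (log2 fold change -0.028 ± 0.43), with both groups spanning a like range. Ppp1r3g, a glycogen-targeting subunit, had 61.3 CPM in O5 and 0.297 to 4.60 CPM in the others. In the insulin and growth hormone axis Cux2, a transcription factor that is higher in female liver, had 45.0, 39.0, 43.7, 67.7 and 36.5 CPM in O1 to O5 and 88.3, 114, 47.8, 82.7 and 54.1 CPM in P1 to P5 (log2 fold change 0.74 ± 0.28). Igfbp4, a binding protein of insulin-like growth factors, had a log2 fold change of 0.31 ± 0.31. Igfbp1, named after its values were seen, had 129, 252, 187, 728 and 5504 CPM in O1 to O5 and 520.3, 457, 149, 158 and 153 CPM in P1 to P5, with O5 highest.

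Genes of cell cycle, ribosome biogenesis and the clock mostly had lower means in PDX with all mice. Of 34 tested cell cycle genes 33 had a lower mean in PDX, 4 at an unadjusted p below 0.05 (Cdt1, Ccne1, Ccne2 and Chek1; 4.23% of all genes were lower there), and the list median was -1.02. O2 had the highest mean level (2.25 log2 units from the mean of the 10 mice, against -0.71 to 0.20 in the other 9), and without O2 the median was 0.33. Ccne2, a cyclin of entry into replication, had 1.44, 3.04, 0.565, 1.08 and 3.54 CPM in O1 to O5 and 0.710, 0.763, 0.820, 0.607 and 0.516 CPM in P1 to P5. Ccnd1, the cyclin D1, had 67.5, 147, 47.9, 150.1 and 4.91 CPM in O1 to O5 and 78.6, 97.6, 186, 98.7 and 70.8 CPM in P1 to P5, with O5 lowest. Of 30 Myc and nucleolar genes 29 had a lower mean and 15 passed the unadjusted threshold with all mice (4.23% of all genes), and 1 without O5 (2.5% of all genes). Ncl, nucleolin, had 169, 191, 154, 168 and 529.6 CPM in O1 to O5 and 158, 157, 156, 157 and 158 CPM in P1 to P5, a level that was even across PDX. Odc1, the first enzyme of polyamine synthesis, had 64.6, 41.1, 46.9, 46.1 and 70.4 CPM in O1 to O5 and 43.1, 28.6, 40.9, 42.6 and 28.4 CPM in P1 to P5 and kept its difference (-0.55 with all mice, -0.43 without O5), and Nop56, of small nucleolar particles, had -0.80 ± 0.30 (log2 fold change). Clock genes had 19 of 22 lower means with 2 past the threshold (4.23% of all genes), and their median log2 fold change was -0.45. Past it were 8 without O2, 0 without O5 and 1 without both, and the median without O5 was -0.20. Per1, a repressor of the clock, had 19.8, 50.9, 23.0, 56.6 and 276 CPM in O1 to O5 and 40.9, 21.9, 10.5, 10.5 and 22.6 CPM in P1 to P5. Dbp, an output of the clock, had 2.59, 3.92, 56.7, 1.30 and 20.8 CPM in O1 to O5 and 2.80, 2.29, 3.47, 2.93 and 3.75 CPM in P1 to P5, where O3 and O5 exceeded all other mice. Per2, the member whose groups did not overlap, had 11.4, 10.5, 16.0, 9.36 and 25.9 CPM in O1 to O5 and 7.14, 6.46, 6.28, 8.61 and 8.77 CPM in P1 to P5. Por, the electron donor of cytochromes P450, had a log2 fold change of -0.86 ± 0.48. Since the hour of death is not given, it cannot be told apart from other sources of these differences.

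**Figure D2:**
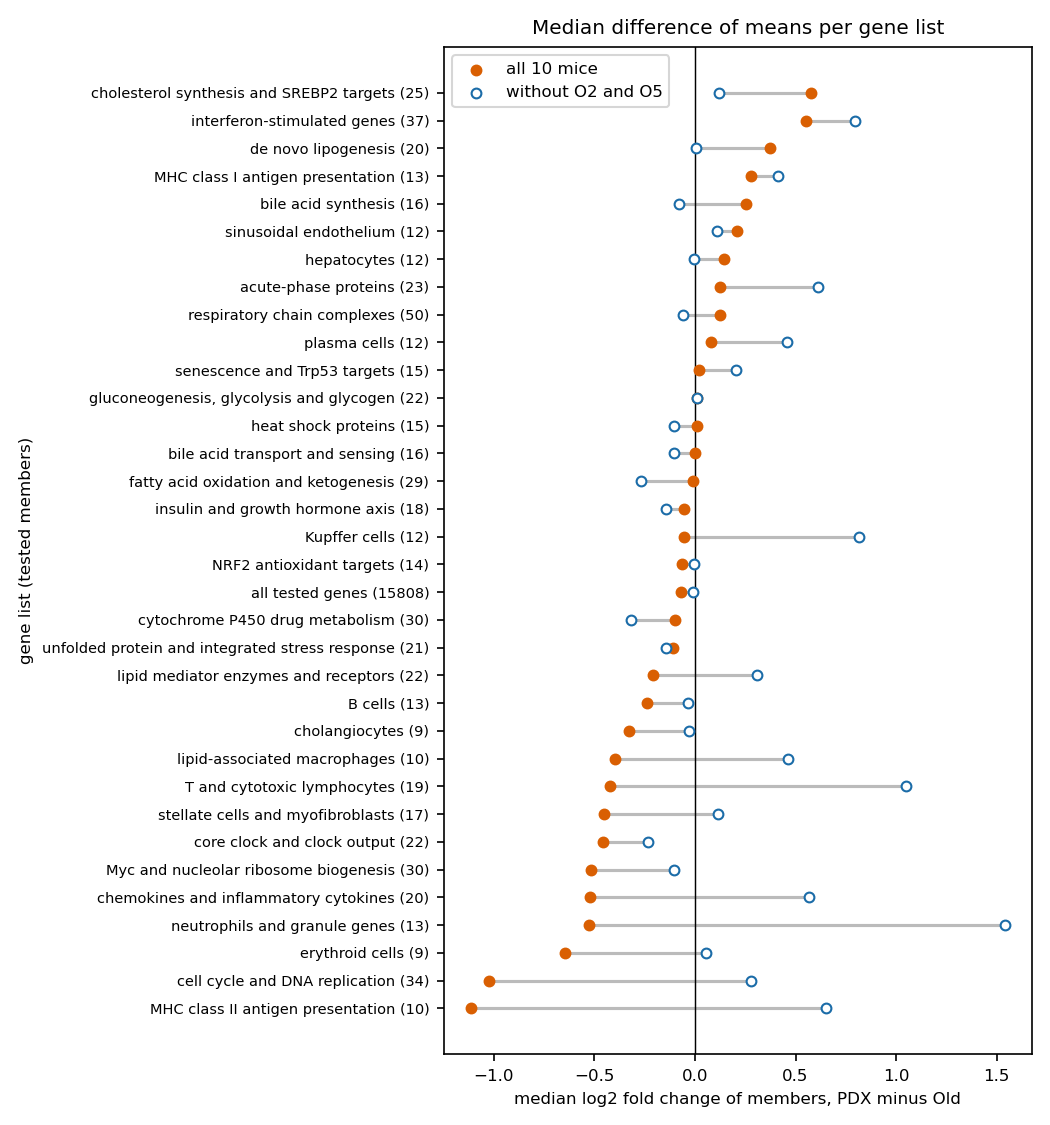
Median log2 fold change (PDX minus Old) of each gene list with 5 or more tested members, with all 10 mice (filled) and without O2 and O5 (open). Class II genes move from -1.11 to 0.65 and neutrophil genes from -0.52 to 1.54, whereas interferon-stimulated genes lie above 0 in both settings.

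Stress and senescence lists held 0 to 2 genes each at an unadjusted p below 0.05, where 5.28% of all genes were. In the unfolded protein and integrated stress response, 2 of 21 passed the unadjusted threshold, Asns, the asparagine synthetase, with 0.849, 4.27, 0.829, 0.929 and 16.6 CPM in O1 to O5 and 1.14, 1.65, 0.631, 0.786 and 0.516 CPM in P1 to P5, and Ppp1r15a, a phosphatase subunit (-0.62 ± 0.26), while Hspa5, the main chaperone of the endoplasmic reticulum, had a difference smaller than its standard error (-0.14 ± 0.23). Heat shock genes had Hspa1a (-1.70 ± 0.65) and Hsf1 (-0.26 ± 0.11) past it, of 15, and Hsp90ab1 at 0.0099 ± 0.14. Of 14 tested NRF2 targets 0 passed, and the 3 named, Nfe2l2, Gsr and Gstm1, had log2 fold changes of -0.27 ± 0.17, -0.32 ± 0.23 and 0.15 ± 0.26. Cdkn2a, the locus of the senescence marker p16, had 0.934, 1.20, 0.792, 0.297 and 0.505 CPM in O1 to O5 and 0.710, 1.28, 2.08, 2.75 and 0.722 CPM in P1 to P5 (log2 fold change 1.01 ± 0.44). Trp53inp1, a p53 target, had a log2 fold change of -0.55 ± 0.56. Of the 15 senescence genes 9 had a higher mean in PDX with all mice and 15 without O2 and O5.

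Stellate cell and myofibroblast markers had a lower mean in PDX in 17 of 17, 4 past the unadjusted threshold (Col1a1, Col5a2, Lox and Rgs5), where 4.23% of all genes were lower. Col1a1, a chain of type I collagen, had 15.5, 90.1, 26.6, 21.3 and 188 CPM in O1 to O5 and 21.6, 14.1, 64.0, 17.0 and 16.8 CPM in P1 to P5, with O5 and O2 highest. Col5a2, of type V collagen, had a log2 fold change of -1.26 ± 0.55, and Dcn, decorin, of -0.15 ± 0.17. The list had 12 of 17 higher means without O2 and O5, so its direction depended on these 2 mice. Stab1, a scavenger receptor of sinusoidal endothelium, passed (0.30 ± 0.12), and Eng and Oit3 of the same cells had 0.25 ± 0.17 and 0.35 ± 0.20. Of bile duct markers 0 of 9 passed, with Spp1 at 0.31 ± 0.18, Muc1 at -0.98 ± 0.52 and Krt19 at -0.88 ± 0.50. Genes of the pancreas varied within Old. Cela1, an elastase, had 13.0, 23.8, 58.4, 77.9 and 2.81 CPM in O1 to O5 and 12.5, 18.4, 14.3, 16.1 and 20.5 CPM in P1 to P5. Cela2a had 1.66, 1.49, 60.9, 64.3 and 0.108 CPM in O1 to O5 and 2.49, 4.38, 0.946, 1.57 and 13.7 CPM in P1 to P5, with O3 and O4 highest in both genes. Car3, of fat and liver, was 0.0361 CPM in O5 and 160.3 to 1590.0 CPM in the other 9 mice, and Cfd, an adipocyte protease, was 0.108 to 4.57 CPM in all 10. The other 5 of the 7 fat cell markers, adiponectin among them, were too low to be tested, as were 5 of 8 pancreatic markers.

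**Figure D3:**
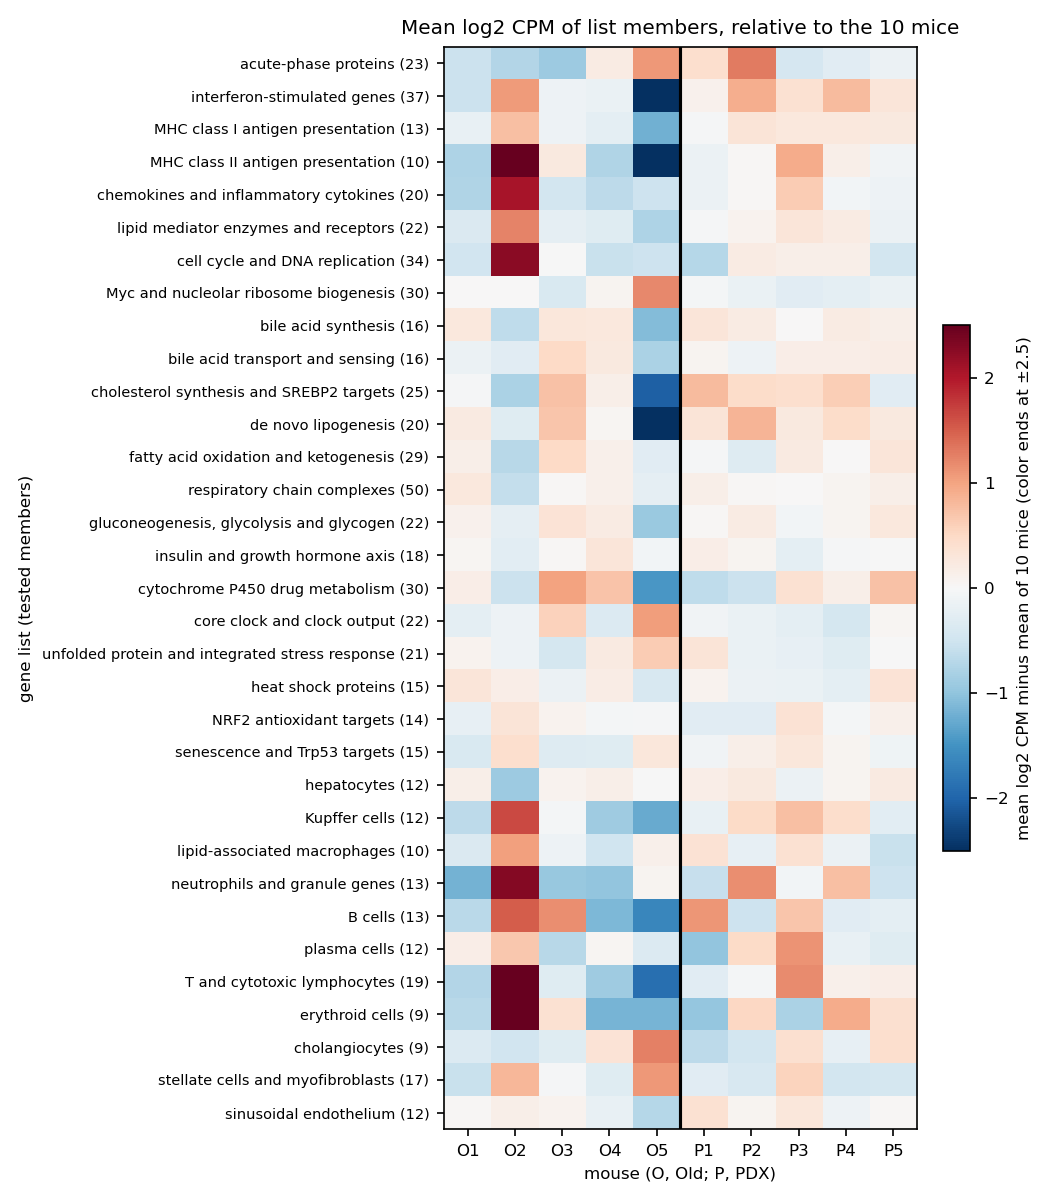
Mean log2 CPM of the tested members of each gene list (rows, number of tested members in parentheses) in each mouse (columns), relative to the mean of the 10 mice. O2 has the highest values for T cell, class II and cell cycle lists and O5 the lowest for interferon, class II and lipid synthesis lists.

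The PDX mice differed less from each other than the Old mice did, over most genes and at every level of expression. The SD of log2 CPM over the 5 mice of a group had a median over genes of 0.53 in Old and 0.23 in PDX, with 0.20 in Adult, and it was smaller in PDX than in Old for 14084 of 15808 genes (89.1%) and smaller in PDX than in Adult for 6586 (41.7%). In Adult it was smaller than in Old for 14297 genes (90.4%). The median log2 ratio of the SDs, PDX over Old, was -1.22, an Old SD 2.33 times that of PDX. The Old SD was at least 2 times the PDX SD in 9365 genes (59.2%), and the reverse held in 216 (1.37%). An SD above 1 was found for 3138 genes in Old (19.9%), 399 in PDX (2.52%) and 214 in Adult (1.35%). The share with the smaller SD in PDX was 79.2% for genes with a mean log2 CPM under 1 and 95.9% for those at 7 or more. These shares have no test, because the genes of a mouse move together.

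**Figure D4:**
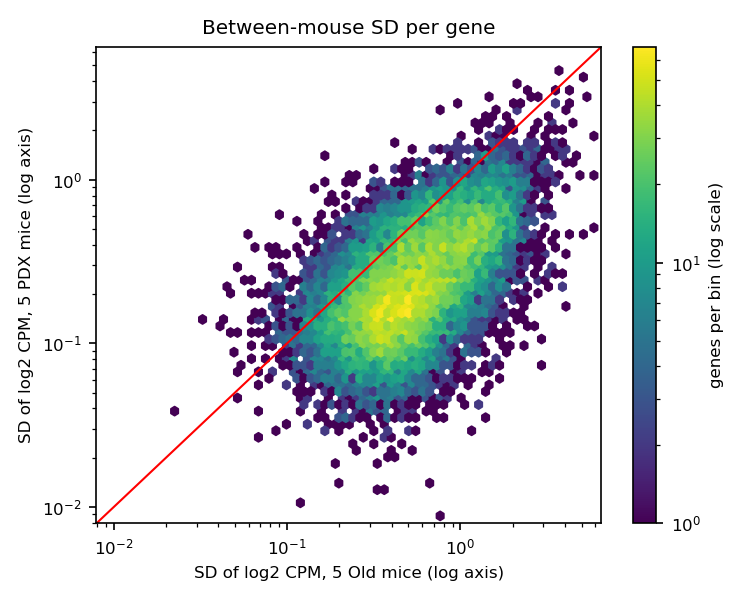
SD of log2 CPM per gene over the 5 Old mice (horizontal, log axis) and the 5 PDX mice (vertical, log axis) for 15808 genes, binned by number of genes, with a line of equality. Most genes (89.1%) lie below the line.

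On the scale of mice, each animal was given 1 value, the mean over genes of its absolute difference from the median of the other 4 mice of its group, in log2 units. The distances were 0.487, 0.729, 0.460, 0.399 and 0.957 in O1 to O5 and 0.311, 0.301, 0.312, 0.266 and 0.327 in P1 to P5. Every Old mouse, also O1, O3 and O4, lay farther from its group than every PDX mouse did. The means were 0.606 ± 0.233 in Old and 0.303 ± 0.0229 in PDX (SD, n = 5 each), a difference of -0.303 with an exact two-sided permutation p of 0.00794, the smallest that 5 against 5 can give. Distances in Adult were 0.265 ± 0.0276, below those of Old (exact permutation p = 0.00794) and of PDX (exact permutation p = 0.0476). The distances of a group share its center, so a mouse that stands apart can raise those of the others. The permutations exchanged the distances as computed and did not recompute them. Each p thus treats the distances of a group as independent, which they are not. Without O2 and O5 the difference was -0.107 (exact permutation p = 0.0179, the smallest that 3 against 5 can give). The center of an Old mouse then rests on fewer mice than that of a PDX mouse. This can by itself raise the Old distances. Of the summed squares around the Old means, O5 held 41.2%, O2 25.4% and O1, O3 and O4 13.3%, 10.4% and 9.73%, and the PDX mice held 14.2% to 24.4% each. O5 was the Old mouse farthest from the group mean in 46.7% of genes.

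**Figure D5:**
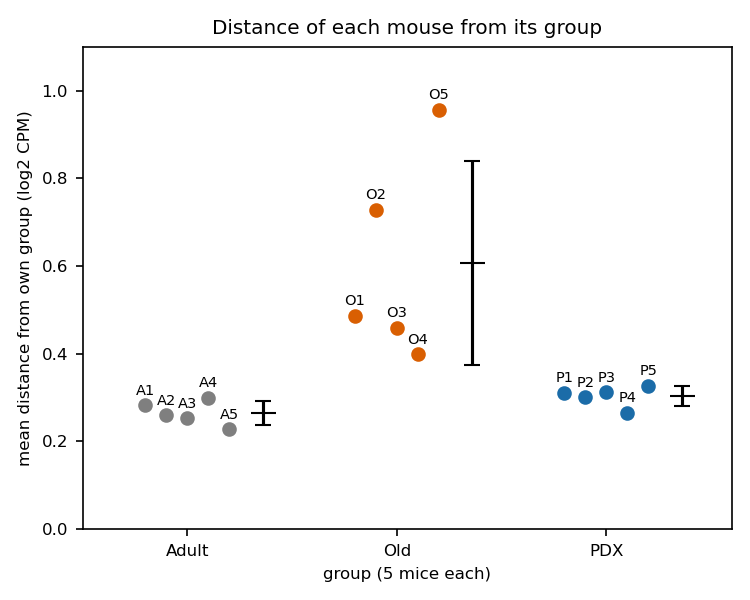
Mean absolute difference of each mouse from the median of the other 4 mice of its group, in log2 CPM over 15808 genes, with the group mean and SD at the right of each group. The 5 Old mice lie between 0.399 and 0.957 and the 5 PDX mice between 0.266 and 0.327.

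Per gene, the spread was tested with limma on the absolute deviations of log2 CPM from the group mean. No gene had an adjusted p below 0.05 (the smallest was 0.0953). At an adjusted p below 0.25 there were 6032 genes (38.2%), 5930 of them with a smaller spread in PDX (37.5%), and at an unadjusted p below 0.05 there were 3691 smaller (23.3%) and 48 larger in PDX (0.304%). The count depended on the center of the deviations, since with the group median in place of the mean 0 genes had an adjusted p below 0.25 and 470 were smaller at an unadjusted p below 0.05. Single mice also moved it, since 1 gene had an adjusted p below 0.25 without P4, 953 to 1432 genes without P1, P2, P3 or P5, 3964 without O5, 6294 without O2, and 8457 to 9162 without O1, O3 or O4. Leaving out O2 and O5, the SD was smaller in PDX for 60.2% of genes, with an Old SD 1.22 times that of PDX at the median, against 82.5% without O2 alone and 78.2% without O5 alone. O2 and O5 were left out because they stood apart in these same data, and no PDX mouse was left out beside them. Leaving out the farthest mice of a group lowers its SD by construction. The SD of fewer Old mice is also set against that of all PDX mice. The shares without O2 and O5 therefore do not measure the part of these 2 mice in the excess spread of Old.

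The 12 genes with the smallest p for a smaller spread in PDX had O2 and O5 apart from the other 3 Old mice, both below all other mice in 9 genes and both above in 3. Agxt (ENSMUSG00000026272, GRCm38 chromosome 1, 93135240 to 93145421, plus strand), the aminotransferase that detoxifies glyoxylate in peroxisomes, had 551, 159, 491, 482 and 189 CPM in O1 to O5 and 464, 469, 446, 511 and 569 CPM in P1 to P5. The SD of its log2 CPM was 0.86 in Old and 0.14 in PDX (limma, adjusted p = 0.0953), and O1, O3 and O4 lay within or near the PDX range. Ebp, a sterol isomerase, had 271, 116, 327, 285 and 109.5 CPM in O1 to O5 and 273, 275, 258, 281 and 247 CPM in P1 to P5, again with O2 and O5 low (SD 0.76 in Old and 0.075 in PDX). Gcat, of threonine breakdown, had 24.5, 6.70, 27.0, 20.7 and 4.29 CPM in O1 to O5 and 20.3, 19.4, 17.0, 21.8 and 21.2 CPM in P1 to P5, and its SD was 1.20 in Old and 0.14 in PDX. Mccc2, of leucine breakdown, Pxmp2, a channel of the peroxisome membrane, Sdr42e1, a dehydrogenase, Nit1, an amidase, and Isoc2a and Adtrp had the same pattern, with Old SDs of 0.78, 0.67, 0.68, 0.50, 0.65 and 0.69 and PDX SDs of 0.071 to 0.13. The 3 genes with O2 and O5 high were Mcm7, a subunit of the replicative helicase, with 12.5, 30.8, 13.2, 13.9 and 33.0 CPM in O1 to O5 and 13.5, 15.9, 14.4, 14.3 and 15.1 CPM in P1 to P5, Phlpp2, a phosphatase that acts on Akt, with 2.59, 7.55, 2.37, 2.38 and 9.56 CPM in O1 to O5 and 3.20, 3.13, 2.68, 2.75 and 3.41 CPM in P1 to P5, and Plekha1, with 9.68, 23.7, 9.24, 9.29 and 22.7 CPM in O1 to O5 and 12.4, 10.4, 11.6, 12.0 and 9.67 CPM in P1 to P5. Because the rule took the smallest p, these genes are the clearest cases of that pattern and not a sample of all genes.

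A larger spread in PDX was found for few genes, and P1 and P2 were the extreme PDX mice in most of those named. Efnb2 (ENSMUSG00000001300, GRCm38 chromosome 8, 8617434 to 8661242, minus strand), the membrane ligand ephrin-B2, had 6.12, 5.06, 4.56, 4.42 and 6.24 CPM in O1 to O5 and 14.4, 17.4, 3.47, 6.00 and 4.30 CPM in P1 to P5. P1 and P2 were the 2 highest of all mice and P3 the lowest, and the SD of log2 CPM was 0.23 in Old and 1.03 in PDX (limma, adjusted p = 0.111). Arhgef26, a guanine nucleotide exchange factor, had 19.4, 11.4, 19.5, 18.6 and 23.6 CPM in O1 to O5 and 44.5, 64.5, 14.7, 17.3 and 37.4 CPM in P1 to P5. Cebpb, a transcription factor of the acute-phase response, had 84.9, 144, 87.1, 119 and 151 CPM in O1 to O5 and 212, 229, 102, 95.2 and 91.6 CPM in P1 to P5, so P1 and P2 exceeded every Old mouse and P3, P4 and P5 did not (SD 0.39 in Old and 0.66 in PDX). Sult2a2, a sulfotransferase of bile acids and steroids, showed the reverse, with 278, 152, 287, 369 and 145 CPM in O1 to O5 and 74.7, 97.6, 305, 273 and 421 CPM in P1 to P5 and P1 and P2 lowest. Cyp3a59 and Tmem44 had SDs of 0.18 in Old and 0.46 in PDX and of 0.087 in Old and 0.60 in PDX. All 6 genes had an adjusted p between 0.111 and 0.185 in limma, above 0.05.

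The lists are given beside the share of all genes with a smaller SD in PDX. Respiratory chain subunits had a smaller SD in PDX in 50 of 50 members, with median SDs of 0.38 in Old and 0.092 in PDX, and in 39 of 50 without O2 and O5. With all mice 25 of the 50 had a smaller spread at an unadjusted p below 0.05 in limma, where 23.3% of all genes did. Fatty acid oxidation had 27 of 29 smaller (0.73 and 0.26), cholesterol synthesis 25 of 25 (1.12 and 0.47) and de novo lipogenesis 20 of 20 (1.32 and 0.35), each beside 89.1% of all genes. Without O2 and O5 the SD was smaller in PDX for 15 of 29, 11 of 25 and 15 of 20 of these, beside 60.2% of all genes. The hepatocyte markers were smaller in 12 of 12 with all mice and in 6 of 12 without O2 and O5. Tat, the tyrosine aminotransferase, spread widely in both groups (1.40 in Old and 1.06 in PDX). Interferon-stimulated genes had 37 of 37 smaller SDs with all mice, and 11 of 37 without O2 and O5. Kupffer cell markers went from 11 of 12 to 0 of 12, and neutrophil genes from 12 of 13 to 1 of 13. Clock genes stayed smaller in PDX, with 21 of 22 and 17 of 22, and so did Myc and nucleolar genes, with 30 of 30 and 25 of 30. The all-gene share moved from 89.1% to 60.2% at the same time. The median SD of the clock genes was 1.04 in Adult, 0.92 in Old and 0.33 in PDX, so it was not smaller in Adult than in Old. With all mice, the smallest shares among lists of 5 or more tested members were those of plasma cell genes (7 of 12), lipid-associated macrophage markers (7 of 10) and NRF2 targets (10 of 14).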

How the data were processed

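Poly(A)-selected liver RNA of 15 mice was sequenced, 1 library per mouse. Per the labels, the authors aligned reads to mm10 with STAR (2.6.0c) and the deposited counts are uniquely aligned read pairs per gene, not normalized, from featureCounts (Subread 1.6.2). A second table deposited by the authors, from the variance-stabilizing transformation of DESeq2 (1.23.10), has values near a log2 scale and served as an alternative input. All columns of both tables were assigned to a mouse by name, with 0 left over. Groups were taken from the labels. Depth was 25480180 to 30139181 counted pairs in the 10 mice compared, and counting error was not measured apart from the spread between mice. Of 55450 gene IDs, 55104 received a symbol from GRCm38 annotation.

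Counts were fitted with edgeR (4.0.16) in R 4.3.3, after filterByExpr given the groups (a count of at least 10 and a total of at least 15), with TMM factors and 1 coefficient per group over all 15 mice, which share one estimate of the spread. The quasi-likelihood test was two-sided with Benjamini-Hochberg adjustment over 15808 genes and thresholds of 0.05 and 0.25. Spread was tested with limma (3.58.1) on absolute deviations of log2 CPM (prior count 2) from the group mean, scaled for group size, in the 10 mice. Values with 1 number per mouse were compared by exact two-sided permutation tests, which exchanged the values as computed. The edgeR test, the limma test and the SD ratios were also run on simulated counts, and the permutation tests were not. In those counts genes were independent and most spread alike in all groups, unlike in these data. Alternatives were DESeq2 (1.42.0), other size factors, filters, prior counts, samples, centers and inputs, a replicate block, and fits without each mouse. The fits without O2 and O5 by list and the fit without a variance trend were added after the data were seen. Genes were named by rule. Above a mean log2 CPM of 1 these were the 12 smallest p for a higher and the 12 for a lower mean in PDX, the non-overlapping genes whose mean log2 CPM reached 5, the 12 smallest p for a smaller and the 6 for a larger spread, and of each list the most abundant member and the 2 smallest p. Other members named in the text (Bst2, Isg15, Irf9, Saa1, Fpr2, Cmklr1, Igfbp1, Eno1, Per2, Ccne1, Chek1, Lox and Rgs5) were chosen after their values were seen. The comparison, gene lists and rules were chosen with earlier results of these data known. Promoter sequences are from RefSeq, and 25 of 37 listed interferon genes were found there by symbol. Each mouse is a separate animal. Batches and hours of euthanasia are not given per mouse and were not analysed here. Some genes that the rules name are not reported here.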

Additional observations from a re-analysis of the deposited data

Results flagged for a closer look

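In groups of 5, a mouse was taken to stand apart in log2 CPM where its gap to the nearest other mouse, as a share of the range of the group, exceeded Dixon's 95% critical value. Chance gives this in about 1 in 20 groups taken without regard to their values. The genes checked were mostly named for their values in these same data and move together within a mouse, so that rate is no reference for them. Of 290 groups checked (Old and PDX for each of 144 genes named by rule and for the distances of the mice), 32 did (11.0%), 21 of them in Old. The share is given in parentheses after each gene.

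O5 was apart and lowest for Pcolce2 (0.714), Nadk (0.894), Ifi27 (0.784), Lsr (0.741), Ifitm3 (0.867), Slc22a27 (0.885), Saa4 (0.728), Psme2 (0.787), Abcb11 (0.766), Acaca (0.719), Pnpla3 (0.838) and Car3 (0.761). These include genes of interferon response, of bile salt export and of lipid synthesis. O5 was highest for Kansl2-ps (0.765), Cdc42ep5 (0.895) and Ncl (0.826). O2 was highest for Ccl24 (0.792), Trem2 (0.773), Cd4 (0.845), Eomes (0.760) and Slc4a1 (0.829), which are markers of immune and red cells, and lowest for Atp5b (0.825).

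Among PDX mice P3 was highest for H2-Aa (0.790), Ighg3 (0.764), Dcn (0.818) and Col1a1 (0.718) and lowest for Ccl24 (0.765). P5 was highest for the bile duct markers Muc1 (0.710) and Krt19 (0.754) and lowest for Trem2 (0.762). P1 was highest for Nop56 (0.743) and lowest for Iigp1 (0.859). P4 was highest for Cpt1a (0.721), the gene of mitochondrial fatty acid import.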

How the results depend on the processing

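No alternative gave a gene with an adjusted p below 0.25 for the means. The counts of genes at an unadjusted p below 0.05 (165 higher, 669 lower) were 358 and 1252 without the low-count filter, 79 and 325 when only the 10 mice were fitted, 256 and 317 on the variance-stabilized values, 977 and 438 without O2 and O5, and 73 to 861 and 395 to 1509 without single mice. The higher count moved by more than 1.5 times without O1, O2, O3 or P2, and the lower without O1, O3, O4, O5 or P4. Genes without overlap (23 higher, 31 lower) were 39 and 47 without the filter, 421 and 207 without O2 and O5, and 26 to 239 and 53 to 165 without single mice, where fewer mice make overlap less likely. For the spread, the genes at an adjusted p below 0.05 (0) were 1307 with all 15 mice in the fit, 1004 without the filter and 0 to 831 without single mice. Those at an adjusted p below 0.25 (6032) were 9103 with all 15 mice, 12300 without the filter, 1502 without O2 and O5, 0 with deviations from the median or squared, and 1 to 9162 without single mice. Genes with a larger spread in PDX at an unadjusted p below 0.05 (48) were 76 with all 15 mice, 1974 without the filter, 384 without O2 and O5, 4 with the median, 26 with squares and 30 to 140 without single mice, and those with a smaller spread (3691) were 5712, 6822, 2141, 470, 1592 and 2495 to 5270 in the same order. The median log2 SD ratio was -0.28 without O2 and O5 and -1.33 to -0.79 without single mice, and the share of genes with the smaller SD in PDX was 60.2% without O2 and O5, 74.5% without the filter and 78.2% to 89.5% without single mice. The difference of distances was -0.414 to -0.218 without single mice. The cause of these movements was not tested.

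The direction of some genes reversed. On the variance-stabilized values the difference was, in log2 units, Cd74 0.20, H2-Aa 0.24, Slc4a1 0.25, Cfd 0.0029 and Car3 1.47. Over the fits without 1 mouse it ranged, with the reversed end given by leaving out O2, for Cd74 from -1.92 to 0.95, H2-Aa -1.95 to 0.92, Ccl2 -1.50 to 0.16, Alox5 -2.19 to 0.59, Trem2 -1.69 to 0.38, Ltf -1.78 to 0.55, Cd4 -4.01 to 1.62, Eomes -1.66 to 1.20 and Slc4a1 -2.62 to 2.61. The reversed end came without O3 for Car3 (-0.77 to 0.0060), without O4 for Cfd (-0.70 to 0.65), without O5 for Cpt1a (-0.92 to 0.039), Gsr (-0.44 to 0.016) and Tat (-1.06 to 0.28), and without P3 for Ighg3 (-0.92 to 3.06). Without O2 and O5 it was Cd74 0.62, H2-Aa 0.58, Ccl2 0.36, Alox5 1.11, Asns 0.12, Nfe2l2 0.012, Tat 0.089, Cd63 0.17, Trem2 0.26, Ltf 2.26, Cd4 1.91, Eomes 1.05, Slc4a1 2.77, Col5a2 0.39 and Col1a1 0.35, and the difference of the mean deviation was Mcm7 0.0081, Adtrp 0.088, Sdr42e1 0.035, Phlpp2 0.064, Agxt 0.027, Plekha1 0.11 and Nit1 0.035.

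Same-numbered Old and PDX mice are different animals, and their deviations from the group means correlated at -0.039 to 0.285 over genes. The mean correlation was 0.092 for same numbers and -0.022 for different numbers, and 4 of 10 mice correlated best with their own number. The main fits did not pair mice by number, and whether a number marks anything shared was not tested. With a replicate block 204 genes were higher and 295 lower at an unadjusted p below 0.05, the distances differed by -0.303 (exact sign-flip permutation p = 0.0625, the smallest possible), and the log2 fold change reversed for Cd74 0.029, H2-Aa 0.025, Cd4 0.077, Eomes 0.14 and Slc4a1 0.21.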
